A study of Gallus gallus with 6 samples.

Results

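The genes described here are the ligands and receptors of the platelet-derived growth factor (PDGF) family of the chicken. Members were chosen by name, as every probe set whose only annotated symbol is PDGFRA, PDGFRB, PDGFRL, PDGFA, PDGFB, PDGFC or PDGFD. All 7 genes had a probe set on the array, 11 probe sets in all, out of 13009 named genes and 38439 probe sets tested. PDGFRA, PDGFRB and PDGFRL are the receptors and a receptor-like protein, and PDGFA, PDGFB, PDGFC and PDGFD are the 4 ligand chains.

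Transcripts mainly expressed in primordial germ cells (PGC), from which eggs or sperm later form, or in embryonic fibroblasts (CEF), mesenchymal cells of the body wall, were sought in this chicken series. The PGC were cultures of blood from the dorsal aorta at embryonic day 2.5, pooled from 20 embryos a replicate and kept in knockout DMEM whose growth factor was human bFGF (basic fibroblast growth factor) at 10 ng/ml, with 1500000 cells taken for RNA. The CEF were cultures of bodies freed of limbs and internal organs at embryonic day 6.5, pooled from 5 embryos a replicate and kept to passage 2 in DMEM plus 10% fetal bovine serum (FBS) and 1% antibiotic-antimycotic, with 6000000 cells taken for RNA. Each cell type had 3 Affymetrix arrays, which the titles call biological replicates. Both were kept at the same temperature and in the same atmosphere, and no strain, sex or transgene is named for either. Cell type, embryonic age and medium changed together and cannot be told apart. RNA came from whole cultures, in which fewer cells of a type and less RNA per cell cannot be told apart.

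PDGF is a growth factor of mesenchymal cells. Its chains pair by disulphide bonds, and each dimer joins receptor chains at the cell surface, whose tyrosine kinases then phosphorylate each other and recruit adaptors that lead to ERK and AKT signalling. In mammals, dimers of PDGFA and of PDGFC bind PDGFRA, dimers of PDGFD bind mainly PDGFRB, and dimers of PDGFB bind both. In the mouse embryo PDGFRA is known from mesoderm and mesenchyme and PDGFRB from pericytes, vascular smooth muscle and fibroblasts.

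Levels are deposited values on a log2 scale, and differences are PGC minus CEF on that scale with the standard error from limma. A gene, represented by its brightest probe set, was called if it differed 2-fold or more and had a Benjamini-Hochberg adjusted p below 0.05. A background level, the 95th percentile of 687 probe sets for sequences other than chicken genes, averaged 1.68 in PGC and 1.97 in CEF. Over probe sets, which are not independent replicates, arrays correlated at 0.997 among PGC, at 0.980 to 0.987 among CEF, and at 0.850 to 0.862 from one cell type to the other. The labelled cell types were matched by their markers: all 6 measured germ cell markers were called higher in PGC and all 12 fibroblast markers higher in CEF. Of all genes, 17.6% and 14.9% were called so. The summed linear level of the fibroblast markers was 984 to 1040 in PGC and 18060 to 22010 in CEF. VIM (8.84), COL3A1 (8.28) and COL1A2 (7.38) were the brightest of them in PGC.

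Among the 7 PDGF family genes, the test called 1 as higher in PGC and 5 as higher in CEF, and left 1 uncalled. Among all 13009 genes, 17.6% were called higher in PGC and 14.9% higher in CEF, 32.5% in either direction. The family's median difference was -3.06, beside -0.05 for all genes. The arrays of the 2 cell types did not overlap for 6 of the 7 genes, as for 71.2% of all genes. By probe set, 1 of 11 was called higher in PGC and 8 higher in CEF, where 14.6% and 10.1% of all probe sets were, 24.6% in either direction. PDGFC alone among the 7 was higher in PGC, and PDGFRA was the gene that was not called.

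**Figure D1:**
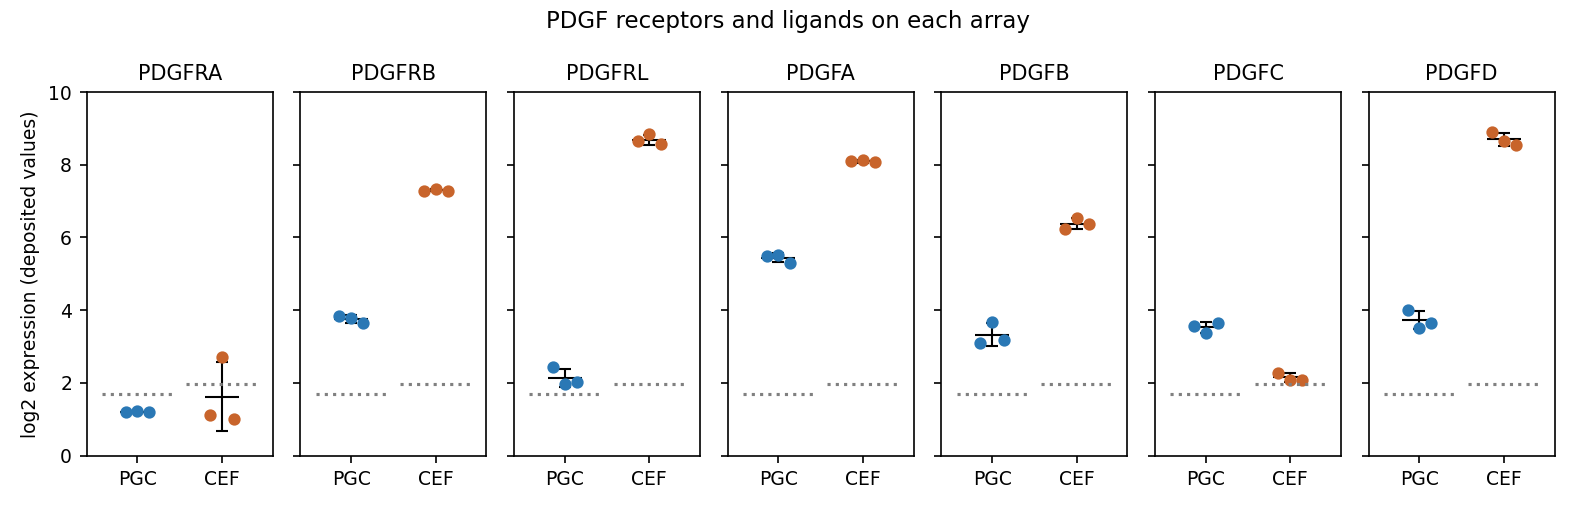
Log2 expression of the 7 PDGF family genes, by the brightest probe set of each, on the 3 PGC arrays (blue, left) and the 3 CEF arrays (orange, right). Points are arrays, black bars the mean and SD, and dotted lines the mean background level of the cell type. PDGFRA lies under background on 5 of 6 arrays, PDGFC is higher in PGC, and the other 5 genes are higher in CEF with no overlap. Heights are not comparable between genes.

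PDGFRB, the receptor of PDGFB and PDGFD, measured 3.84, 3.78 and 3.64 on the PGC arrays, against 7.29, 7.33 and 7.28 on the CEF arrays. Every CEF array lay far above every PGC array, and the CEF arrays differed by only 0.03 (SD), the smallest spread of the 7 genes in CEF. The difference was -3.54 ± 0.12 (adjusted p = 8.06e-08), an 11.7-fold higher level in CEF with a 95% confidence interval from 9.67 to 14.1. PGC still lay above background on all 3 arrays. A second PDGFRB probe set was under background on all 6 arrays, with means of 1.21 in PGC and 1.49 in CEF, and gave no fold. Averaging both probe sets reduced the difference to -1.91, still called (adjusted p = 1.19e-06).

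PDGFRA, a receptor of PDGFA, PDGFB and PDGFC, measured 1.20, 1.23 and 1.20 on the PGC arrays and 1.13, 2.71 and 1.02 on the CEF arrays. It was not above background on any PGC array and on only 1 CEF array, that of replicate 2, where the background level was 1.96. The groups overlapped, and the difference of -0.41 ± 0.39 was not called (adjusted p = 0.41). Its 95% confidence interval ran from -1.30 to 0.48. Without CEF replicate 2 the difference turned to 0.13 (adjusted p = 0.29), with all remaining arrays under background. The array holds 1 probe set for PDGFRA, so no second reading of the gene was at hand, and a level under background is not shown to be an absent transcript.

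PDGFRL, a receptor-like protein that resembles the extracellular part of the PDGF receptors and lacks their kinase, had the largest difference of the family. It measured 2.43, 1.97 and 2.03 in PGC, against 8.65, 8.83 and 8.57 in CEF. The PGC arrays were just above background and the CEF arrays far above it. The difference was -6.54 ± 0.16 (adjusted p = 1.74e-08), 93.0-fold higher in CEF (95% confidence interval 72.2 to 119.8), and only 46 of 13009 genes had a more negative one. With the 99th percentile as background, all 3 PGC arrays fell under it and the gene was at least 68.1-fold higher in CEF.

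Among the ligands, PDGFA, which pairs with PDGFRA, measured 5.50, 5.52 and 5.31 in PGC, against 8.09, 8.14 and 8.06 in CEF. The cell types did not overlap, and both were well above background. The difference was -2.65 ± 0.11 (adjusted p = 2.07e-07), 6.30-fold higher in CEF. A second PDGFA probe set gave -2.38 ± 0.20 (adjusted p = 1.46e-05), with 4.79, 5.00 and 4.72 in PGC and 6.77, 7.48 and 7.41 in CEF. The intervals of the 2 probe sets overlapped.

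PDGFC, another ligand of PDGFRA, ran the opposite way. It measured 3.56, 3.37 and 3.65 in PGC, against 2.29, 2.09 and 2.08 in CEF. All PGC arrays lay above all CEF arrays, and the CEF arrays stood only just above their background. The difference was 1.38 ± 0.14 (adjusted p = 5.68e-05), a 2.60-fold higher level in PGC with a 95% confidence interval from 2.07 to 3.25. It was not called against a 2-fold minimum by limma's treat (adjusted p = 0.088). With the 99th percentile as background the CEF arrays fell under it, and the gene was at least 1.54-fold higher in PGC. Of all genes, 87.8% had a lower difference.

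PDGFB, the cellular homologue of the v-sis oncogene and a ligand of both receptors, measured 3.10, 3.68 and 3.18 in PGC, against 6.24, 6.53 and 6.37 in CEF. The cell types did not overlap, and PGC varied more, with an SD of 0.31 in PGC and 0.14 in CEF. The difference was -3.06 ± 0.18 (adjusted p = 1.97e-06), 8.35-fold higher in CEF. In mammals PDGFB is known from endothelium, platelets and macrophages, so markers of these cells are given with it. Of 10 endothelial markers measured, 0 were called by limma towards PGC and 3 (30%) towards CEF. Of all genes, 17.6% and 14.9% were called so. At an unadjusted p under 0.05, limma gave 1 higher in PGC and 4 higher in CEF. The share of all genes at this limit was not counted. The summed linear level of the 10 was 85.6 to 89.9 in PGC and 231 to 376 in CEF. The 3 were ERG (-5.99), CLDN5 (-3.66) and VWF (-2.23). ERG and CLDN5 were under background in PGC, and at least 48.5-fold and 11.1-fold higher in CEF. ERG, at 7.28, was the brightest of the list in CEF. CDH5 and TEK, other defining markers, were under background on all 6 arrays. PECAM1 (-0.73), TIE1 (-0.29), ESAM (-0.08), KDR (-0.00093) and EGFL7 (0.71) were above background on all arrays and not called. Of 9 erythroid, thrombocyte and leukocyte markers, 0 were called towards PGC and 2 (22.2%) towards CEF. The latter share lies beside 14.9% of all genes. At an unadjusted p under 0.05, limma gave 0 higher in PGC and 5 higher in CEF. Here too the share of all genes was not counted. The sums of the 9 were 42.8 to 43.5 in PGC and 154 to 287 in CEF. The 2 were PTPRC, the leukocyte antigen CD45 (-4.43, 21.5-fold higher in CEF), and SPI1, a myeloid transcription factor (-3.73). SPI1 was under background in PGC and at least 9.20-fold higher in CEF. Thrombocytes were hardly read, since GP9 was under background on all 6 arrays and ITGA2B and GP1BB matched no symbol. The part of endothelial and blood cells in the PDGFB difference was not tested.

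PDGFD, a ligand of PDGFRB, was read by 3 probe sets. The brightest measured 3.997, 3.52 and 3.65 in PGC, against 8.89, 8.66 and 8.54 in CEF. Its difference was -4.98 ± 0.16 (adjusted p = 6.55e-08), 31.5-fold higher in CEF, the largest among the ligands. The second gave -5.58 ± 0.16 and the third -3.09 ± 0.16, all 3 in the same direction with no overlap of the arrays. In PGC the third was under background on every array, so it gives only a bound, with CEF at least 5.23-fold higher (adjusted p = 9.12e-07).

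**Figure D2:**
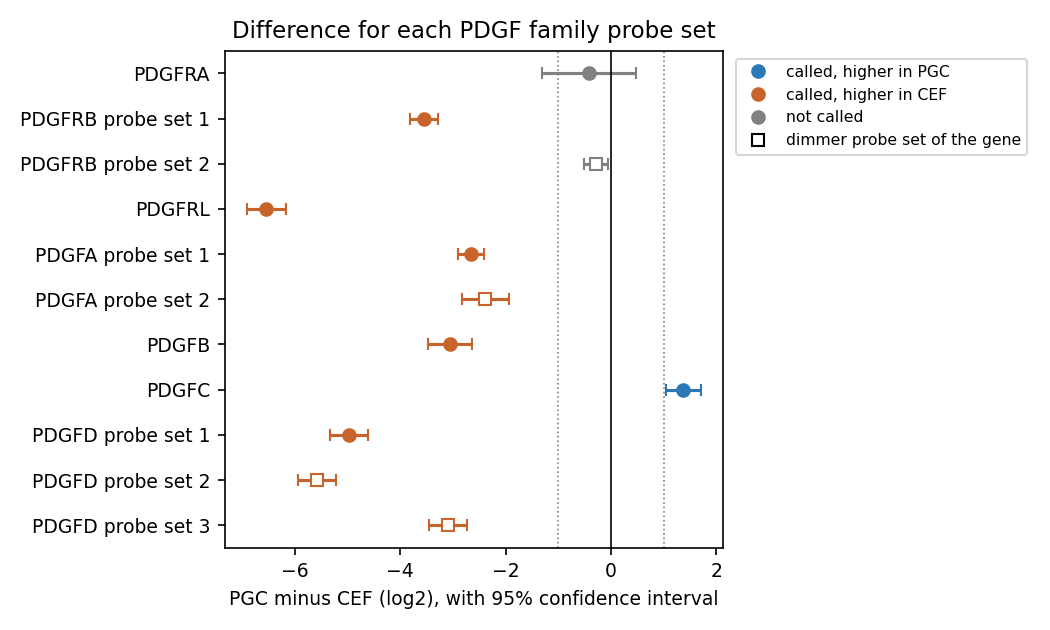
PGC minus CEF difference (log2) for each of the 11 PDGF family probe sets, with 95% confidence intervals from limma. Filled circles are the brightest probe set of a gene, open squares its dimmer ones, and dotted lines mark a 2-fold difference. All 3 PDGFD and both PDGFA probe sets lie left of the line, the dimmer PDGFRB probe set lies close to 0 at -0.28, and PDGFC lies to the right at 1.38.

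The called genes can be ordered by their differences, which are not levels. From PDGFRL at -6.54 and PDGFD at -4.98 the order ran through PDGFRB at -3.54, PDGFB at -3.06 and PDGFA at -2.65 to PDGFC at 1.38. The 95% confidence intervals of PDGFRB (-3.82 to -3.27) and PDGFB (-3.48 to -2.65) overlapped, and so did those of PDGFB and PDGFA (-2.90 to -2.41). The other neighbours in this order had separate intervals. The order is that of the brightest probe sets. With probe sets averaged PDGFRB (-1.91) came after PDGFA (-2.52), and the 3 PDGFD probe sets ran from -5.58 to -3.09. PDGFRB and both ligands that bind it in mammals were therefore higher in CEF. Of the ligands of PDGFRA, PDGFC was higher in PGC, while PDGFA and PDGFB, which binds both receptors, were higher in CEF. PDGFC was at 2.35 and PDGFA at -1.68 with arrays levelled on the bacterial spike-ins, and both calls were kept. That scaling moves every difference towards PGC by the same amount, smaller than the PDGFA difference, so neither sign could turn.

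PDGFRA and PDGFRB belong to the same receptor kinase class as KIT and CSF1R, and these genes lie next to each other in vertebrate genomes. In the RefSeq annotation of assembly GRCg7b, KIT, the receptor of stem cell factor, is the next protein-coding gene to PDGFRA, and KDR, a VEGF receptor, follows with 1 gene between. CSF1R, the macrophage colony-stimulating factor receptor, is the next one to PDGFRB. These neighbours were picked after the values of the members had been seen.

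KIT measured 9.54, 9.41 and 9.40 in PGC, against 1.24, 0.94 and 0.54 in CEF, where it was under background on all arrays. PGC exceeded CEF at least 178-fold (8.55 ± 0.18, adjusted p = 9.31e-09), beside a PDGFRA under background on all PGC arrays. KDR had means of 2.57 in PGC and 2.57 in CEF, and its difference of -0.00093 ± 0.13 was not called (adjusted p = 1.00), or 0.97 after spike-in scaling. KDR was above background on all arrays, but on none of the CEF arrays with the 99th percentile as background. CSF1R measured 3.001, 2.98 and 2.97 in PGC, against 3.81, 3.50 and 5.00 in CEF, and differed in the direction of PDGFRB (-1.12 ± 0.34, adjusted p = 0.024). Its call ended without any 1 of the 3 PGC arrays (adjusted p between 0.068 and 0.072) or without CEF replicate 3 (-0.67), and after spike-in scaling (-0.14).

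**Figure D3:**
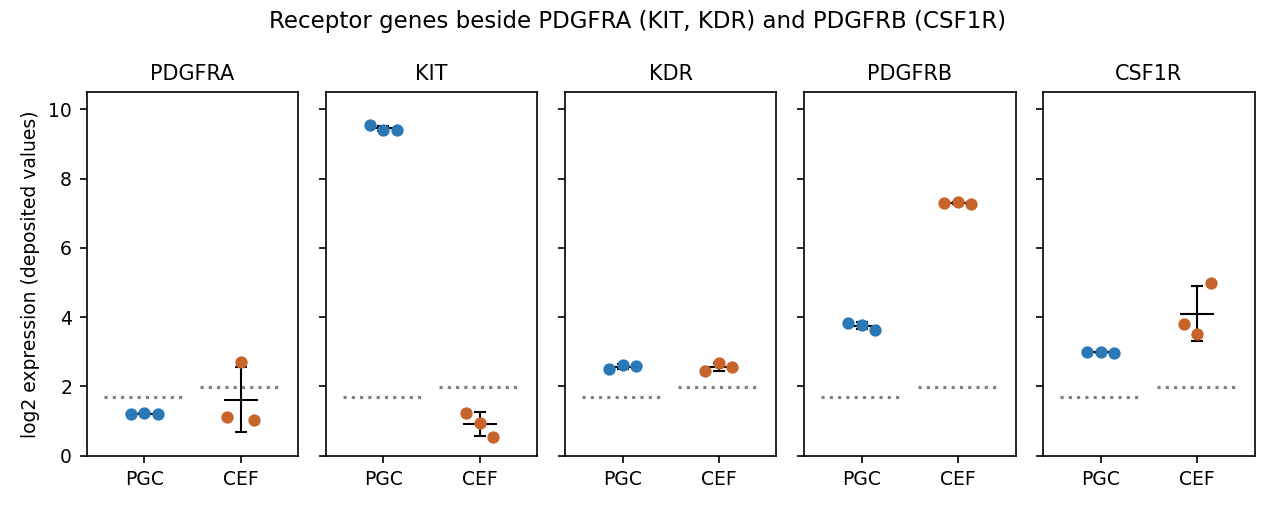
Log2 expression of PDGFRA with its chromosomal neighbours KIT and KDR, and of PDGFRB with CSF1R, on the 3 PGC arrays (blue, left) and the 3 CEF arrays (orange, right), with mean and SD as black bars and the background level dotted. KIT is at 9.45 in PGC and 0.90 in CEF while PDGFRA is near or under background in both, and PDGFRB separates the cell types by more than CSF1R does. Heights are not comparable between genes.

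Genes of the wider pathway were counted on 6 lists. They held 101 measured genes, of which the test called 11 towards PGC and 35 towards CEF, with 55 left uncalled and a median of -0.40. That is 10.9% towards PGC and 34.7% towards CEF, beside 17.6% and 14.9% of all genes. No test of a difference between lists was run.

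Proteins that process or bind the ligands gave 0 of 16 genes higher in PGC and 9 (56.3%) higher in CEF, where 14.9% of all genes were, with a median of -1.60. At an unadjusted p under 0.05 limma gave 0 and 11, a limit at which the share of all genes was not counted. SPARC, a matrix protein that binds PDGF, averaged 5.82 in PGC and 10.71 in CEF, 29.6-fold higher in CEF (-4.89 ± 0.17). CSPG4, the proteoglycan NG2 of pericytes and other precursor cells, which binds PDGFA, averaged 2.34 in PGC and 7.08 in CEF (-4.74 ± 0.16), or -1.71 and still called with its probe sets averaged. SPARC was then at -5.88. THBS1, the matrix glycoprotein thrombospondin, differed by -4.31 ± 0.56, with 2.25, 2.39 and 2.73 in PGC and 5.21, 7.55 and 7.53 in CEF, or -5.08 without CEF replicate 1. The following were named for their roles after their values were seen. PLAU, a protease that in mammals releases active PDGFD, was higher in CEF (-2.62 ± 0.34, adjusted p = 2.47e-04), or -0.98 and not called with its probe sets averaged. PLAT, which does so for PDGFC, was not called (-0.28 ± 0.14), nor was FURIN, which cleaves the precursors of PDGFA and PDGFB (-0.64 ± 0.15).

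The VEGF ligands, which share the fold of PDGF, and the related receptors gave 1 of 9 genes higher in PGC (11.1%) and 5 higher in CEF (55.6%), beside 17.6% and 14.9% of all genes, with a median of -1.12. KIT was the gene higher in PGC. VEGFC, the ligand of lymphatic vessels, averaged 4.30 in PGC and 6.93 in CEF, 6.19-fold higher in CEF (-2.63 ± 0.14). FLT4, its receptor, differed by -2.39 ± 0.23, but by -0.66, under the 2-fold minimum, as the mean of its 5 probe sets. FLT1, another VEGF receptor, was under background in PGC and at least 2.44-fold higher in CEF (-1.88 ± 0.20), or -1.08 with its probe sets averaged and -0.91, not called, after spike-in scaling.

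Of 28 adaptors and kinases that dock on the receptors or act close to them in signalling, 5 were called towards PGC and 5 towards CEF. That is 17.9% in each direction, close to the 17.6% and 14.9% of all genes, with a median of -0.05. The kinase ABL2 averaged 8.23 in PGC and 5.57 in CEF, 6.35-fold higher in PGC (2.67 ± 0.10). The related ABL1, named beside it after its values were seen, ran the other way, with 7.04 in PGC and 8.65 in CEF (-1.60 ± 0.09). Of the 4 SRC family kinases on the list, YES1 was higher in PGC (1.35 ± 0.22), FYN (-2.21 ± 0.10) and LYN (-1.99 ± 0.13) were higher in CEF, and SRC was not called (-0.52 ± 0.14). JAK2, a cytokine receptor kinase, was higher in PGC (1.17 ± 0.25) and RAPGEF1, an exchange factor for RAP, was higher in CEF (-1.84 ± 0.10). As the mean of all probe sets of each gene, the differences of ABL2 (0.83), ABL1 (-0.77), YES1 (0.63), LYN (-0.84) and JAK2 (0.85) fell under the 2-fold minimum, and that of RAPGEF1 was -1.02. ABL1 (-0.63) and RAPGEF1 (-0.87) did so after spike-in scaling, and JAK2 (0.87) without CEF replicate 1. By treat, JAK2 (adjusted p = 1.00) and YES1 (adjusted p = 0.38) were not called.

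Of 15 relay kinases and GTPases of the ERK and AKT branches, 0 were called in either direction by limma, beside 32.5% of all genes, with differences between -0.77 and 0.87 and a median of -0.01. The bacterial spike-ins bioB, bioC and bioD differed by -0.97, and scaling to them moves every difference towards PGC by that amount. It would carry the positive differences of this list, such as MAP2K2 at 0.87, past the 2-fold minimum. The count of 0 therefore holds for the deposited scaling only. With no fold minimum, 4 had an adjusted p under 0.05 with a higher level in PGC and 4 with a higher level in CEF. At an unadjusted p under 0.05 there were 5 and 5 genes. Calls with no fold minimum were also more numerous over all probe sets. The share of all genes at these looser limits was not counted, so they are not read as a trait of this list.

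Brakes on the receptors gave 4 of 19 genes higher in PGC (21.1%) and 6 higher in CEF (31.6%), beside 17.6% and 14.9% of all genes, with a median of 0.01. Higher in PGC were SLC9A3R1 (1.99 ± 0.15), a scaffold that binds the receptors' tails, the phosphatase PTPN1 (1.85 ± 0.20) and CBL (1.33 ± 0.17), a ubiquitin ligase of activated receptors. CBL was not called by treat (adjusted p = 0.23). Higher in CEF were CAV1, the coat protein of caveolae, at least 20.6-fold (-4.90 ± 0.17), and the cytokine signalling inhibitors SOCS3 (-2.62 ± 0.23) and SOCS1 (-2.37 ± 0.16).

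Transcription factors and early genes that PDGF is known to induce in fibroblasts gave 1 of 14 higher in PGC (7.14%) and 10 higher in CEF (71.4%), beside 17.6% and 14.9% of all genes, with a median of -1.60. EGR1, an immediate early factor, averaged 1.47 in PGC and 8.37 in CEF (-6.89 ± 0.16), above background on 1 PGC array. MYC, the growth regulator, measured 1.76, 1.75 and 2.08 in PGC, against 7.68, 7.32 and 8.18 in CEF, 58.4-fold higher in CEF (-5.87 ± 0.22). PTGS2, the inducible cyclooxygenase, was 47.2-fold higher in CEF (-5.56 ± 0.17), or -2.80 with its 2 probe sets averaged. KLF5, a zinc finger factor of stem cells and of smooth muscle, was the 1 gene higher in PGC, at 7.09 in PGC and 3.99 in CEF (3.10 ± 0.29). With probe sets averaged EGR1 was at -6.12 and KLF5 at 2.21, both still called. FOS, named after its values were seen as the classical early gene, was under background on all 6 arrays. Other growth factors and serum induce many genes of this list, and the part of PDGF was not tested.

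**Figure D4:**
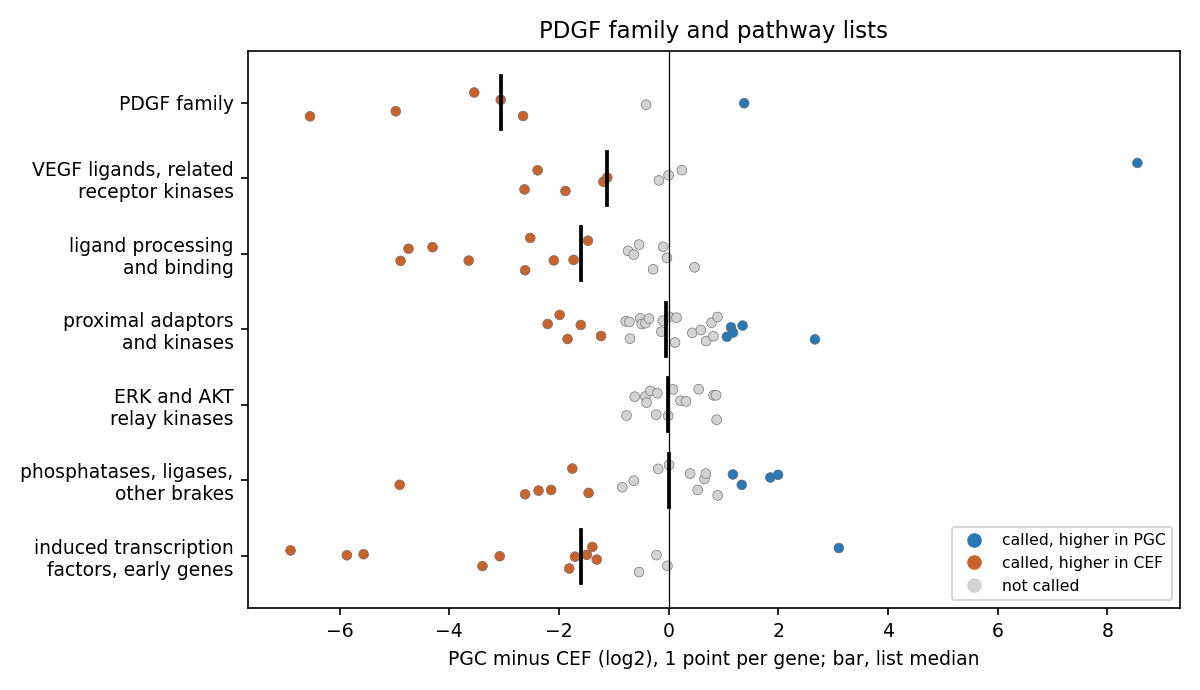
PGC minus CEF difference (log2) of each gene, by list, with points for genes and black bars for list medians. Blue points were called higher in PGC, orange points higher in CEF and grey points not called. The medians are -3.06 for the PDGF family, -1.60 for both ligand-binding and induced genes, and close to 0 for adaptors, relay kinases and brakes.

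Since PDGFRB is known from pericytes and smooth muscle, markers of these cells were counted beside it. Of 10 measured, limma called 0 towards PGC and 6 (60%) towards CEF. Of all genes, 17.6% and 14.9% were called so. At an unadjusted p under 0.05, limma gave 0 higher in PGC and 8 higher in CEF. The share of all genes at this limit was not counted. The summed linear level of the markers was 65.2 to 69.8 in PGC and 2663 to 3345 in CEF. TAGLN, an actin-binding protein that fibroblasts in culture also make, carried most of that sum at 11.38 in CEF (3.19 in PGC). ACTA2, smooth muscle actin (-4.67, at least 17.1-fold higher in CEF), CSPG4 (-4.74), ANGPT1 (-3.21), ABCC9 (-2.13) and KCNJ8 (-1.02) were the other markers called. ANGPT1 and ABCC9 were under background on all PGC arrays, so CEF was at least 5.51-fold and 1.70-fold higher. ABCC9 was also under background on the array of CEF replicate 3. MYH11, the myosin of smooth muscle, was under background on all 6 arrays, while MCAM (-0.33), RGS5 (-0.03) and DES (0.02) were not called. Markers of oligodendrocyte precursors and neural crest, other cells known for PDGFRA, gave 3 of 8 (37.5%) higher in PGC and 1 higher in CEF. The shares of all genes were 17.6% and 14.9%. The sums of these markers were 149 to 160 in PGC and 118 to 179 in CEF, so the arrays of the cell types overlapped. FOXD3 (3.42), the myelin gene MBP (1.51) and SOX9 (1.29) were higher in PGC and SNAI2 (-4.12) was higher in CEF. OLIG2 (-0.49), SOX10 (-0.43), TFAP2A (0.20) and CSPG5 (0.39) were not called. The part of these cells in the PDGF results was not tested.

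For each called member, the genes with the most similar pattern were those at the smallest Euclidean distance over the 6 arrays, with each probe set centred on its own mean. SAT1, an enzyme of polyamine breakdown, was nearest to PDGFRB at a distance of 0.095, followed by MEF2A and LY75. COL6A1, a chain of type VI collagen, was nearest to PDGFRL (0.27), followed by GLIPR2 and MKX. PALLD, an actin-bundling protein, was nearest to PDGFD (0.28), followed by CAV1 and PDLIM5. LHPP, MAP3K20 and TXNDC11 were nearest to PDGFA (0.14 to 0.19), and RUNX2, AHR1A and TMEM45B to PDGFB (0.34 to 0.44). PDGFC was nearest to UBE4B, a ubiquitin ligase, at 0.044, followed by GTSE1 and HLCS. With 2 cell types these distances mostly reflect the size of the difference and say nothing of shared function.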

How the data were processed

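The authors deposited 1 table of values for 38535 probe sets on 6 one-colour Affymetrix Chicken Genome arrays. The deposited values were taken as log2 expression, already normalized between arrays. The base was read from their range (-0.13 to 12.52), while the normalization method, background correction and centring are unknown here. MAS5 and GCOS appear, without a role, in the submitters' processing notes. Per the labels' protocols, about 5 µg of total RNA was labelled for each array. No further scaling was applied.

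After 96 control probe sets were left out, 38439 were tested with limma 3.58.1 in R 4.3.3 (intensity trend, cell type as the only term, two-sided, 4 residual degrees of freedom) and adjusted by the Benjamini-Hochberg method over all of them. The number of arrays limits the precision. The code was tested on simulated data. In the platform annotation, 27178 probe sets had 1 symbol, 177 several and 11180 none, and symbols came only from the first. A fold against a group under background on all arrays is "at least", set against the higher of each array's background level and the value. Summed levels add 2 to the power of each value.

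The members and lists were chosen with earlier results of these data known. Of 200 list entries, 160 matched a symbol. Named genes were all members, the 3 called genes of largest difference in each direction of a list that were above background and without overlap, and the 3 nearest genes of each called member. Alternatives covered scaling, test, dim probe sets, fold minimum, probe set averaging, pairing and leaving out each array. Gene order along the chromosomes came from the RefSeq annotation of GRCg7b, and no sequences were used here.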

Additional observations from a re-analysis of the deposited data

How the results depend on the processing

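The count of 9469 probe sets called became 17374 after scaling to the bacterial spike-ins bioB, bioC and bioD, which differed by -0.97 (PGC minus CEF), 5664 with treat and 18797 with no fold minimum. Without each array in turn it ran from 9297 to 9703. Another spike-in, cre, differed by -0.13 and was not used for the scaling. Spike-in scaling moved the median of all probe sets from -0.09 to 0.89 and the share of calls higher in PGC from 59.1% to 89.9%. Under it the 6 family calls were kept, at -2.57 for PDGFRB, -5.56 for PDGFRL, -1.68 for PDGFA, -2.09 for PDGFB, 2.35 for PDGFC and -4.00 for PDGFD, while PDGFRA turned to 0.56 (not called). The family count was 6 under all alternatives but treat, where it was 5, since the call of PDGFC ended (1.38, adjusted p = 0.088). Over its alternatives the adjusted p of PDGFC ran from 8.16e-07 to 0.088, and that of the other 5 called genes was at most 4.48e-05. Leaving out 1 array moved PDGFRA between -0.71 and 0.13 and PDGFC between 1.32 and 1.46. PDGFRA did not pass the filter on dim probe sets and has no value there. The count of 46 pathway genes became 53 after spike-in scaling and 73 with no fold minimum. KDR, near 0, changed sign after spike-in scaling (0.97) and ranged from -0.060 to 0.057 without 1 array. Among the named pathway and nearest genes, 4 calls ended after spike-in scaling, 6 with treat and 7 with probe sets averaged. With the 99th percentile as background, chosen after seeing the data, PDGFRB, PDGFA, PDGFB and PDGFD, 4 in place of 6 family genes, were above it on all 6 arrays, PDGFRL was under it on the PGC arrays, PDGFC on the CEF arrays and PDGFRA on every array.

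With the replicate number as a block, 9498 probe sets and 6 family genes were called. Deviations of same-numbered arrays correlated at -0.042, -0.023 and 0.023, and 0 of 6 samples correlated best with their own number, so the numbers were not taken as pairs.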

Other observations

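PDGFRA at 2.71 on the array of CEF replicate 2 was 1.48 above the next highest array. On that array 35 probe sets were at least 1 above all other arrays, beside 55 for CEF replicate 1 and 152 for CEF replicate 3, and between 0 and 3 for each PGC array. The value lay 0.75 above that array's background level and just under the 99th percentile of its background probe sets (2.72).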
